A study of Homo sapiens with 3 samples.

Results

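The high mobility group (HMG) proteins were followed in IMR-90 ER:Ras cells, human lung fibroblasts. The name refers to a Ras protein under control of an estrogen receptor (ER) fusion. The group comprised 9 genes: HMGA1 and HMGA2, HMGB1, HMGB2 and HMGB3, and HMGN1, HMGN2, HMGN3 and HMGN4. Every probe set that the platform annotation assigns to exactly 1 of these symbols was taken, which gave 27 of 54613 probe sets and all 9 genes. RNA of 3 cultures, all of the ER:Ras line, was measured on 1 array each. The growing culture had no treatment, the culture in oncogene-induced senescence (OIS) had received 100 nM 4-hydroxytamoxifen (4-OHT), which activates the fusion protein, for 6 days, and the culture in replicative senescence (RS) had been passaged repeatedly for 10 weeks. The promoter that drives the fusion gene and the passage number of the growing culture are not stated in the labels. With 1 array per condition no difference between conditions has a replicate check, and no p-value or SD between cultures is given. In bulk RNA, fewer cells with a transcript and less of it per cell cannot be told apart.

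HMG proteins are abundant nuclear proteins that bind DNA or nucleosomes with little sequence preference and alter how chromatin is folded. HMGA proteins hold the minor groove of AT-rich DNA through short AT-hooks, HMGB proteins bend DNA with a pair of HMG boxes, and HMGN proteins bind the nucleosome core and compete with linker histone H1. In senescent fibroblasts HMGA proteins are known as parts of senescence-associated heterochromatin foci, loss of HMGB2 from chromatin is known to accompany senescence, and HMGB1 is known to leave the nucleus and act outside the cell as an alarm signal.

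Promoter sequence was examined because HMGB3 and HMGN2 were lower in both senescent cultures while HMGN4 was near its growing level. RefSeq start sites on GRCh38.p14 gave 11 windows of 250 bases before a start for 7 of the 9 genes, several genes having more than 1 start. HMGB2 and HMGA2 had no entry. Searched on both strands were CCAAT, the box bound by the factor NF-Y, TTTGAA and TTCGAA, forms of the cell cycle homology region, and TTTCGCGC, TTTGGCGC, TTTCCCGC and TTTGCCGC, forms of the E2F site. Capitals mark the matches on either strand in the 250 bases of 4 windows, written 5′ to 3′ on the strand of the gene. The HMGB3 window lies at chrX:150983085-150983334 on the plus strand, the HMGB1 window at chr13:30465937-30466186 on the minus strand, the HMGN2 window at chr1:26472190-26472439 on the plus strand and the HMGN4 window at chr6:26538116-26538365 on the plus strand.
HMGB3: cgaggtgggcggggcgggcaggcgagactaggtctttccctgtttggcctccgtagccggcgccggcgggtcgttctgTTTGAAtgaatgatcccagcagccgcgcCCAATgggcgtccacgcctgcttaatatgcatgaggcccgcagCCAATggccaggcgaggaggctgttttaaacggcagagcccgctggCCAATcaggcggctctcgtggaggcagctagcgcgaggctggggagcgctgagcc
HMGB1: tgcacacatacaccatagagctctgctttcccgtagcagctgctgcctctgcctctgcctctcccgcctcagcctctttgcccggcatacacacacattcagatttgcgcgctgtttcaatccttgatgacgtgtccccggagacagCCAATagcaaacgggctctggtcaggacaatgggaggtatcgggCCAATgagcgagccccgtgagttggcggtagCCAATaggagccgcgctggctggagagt
HMGN2: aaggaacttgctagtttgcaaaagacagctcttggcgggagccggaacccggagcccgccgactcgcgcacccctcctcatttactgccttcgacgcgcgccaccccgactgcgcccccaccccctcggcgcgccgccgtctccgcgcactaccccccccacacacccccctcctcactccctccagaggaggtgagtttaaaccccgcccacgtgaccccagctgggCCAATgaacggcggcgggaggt
HMGN4: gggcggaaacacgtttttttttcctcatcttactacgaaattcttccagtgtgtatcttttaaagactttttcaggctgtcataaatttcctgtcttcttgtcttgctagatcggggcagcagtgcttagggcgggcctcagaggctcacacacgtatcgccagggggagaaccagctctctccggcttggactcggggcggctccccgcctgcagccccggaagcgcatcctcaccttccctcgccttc

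CCAAT was present in 7 of the 11 windows, which belong to 6 genes, and in 32% of all 35116 windows of the same length. The printed HMGB3 and HMGB1 windows each held 3 copies, the most in any of the 11 windows. That number was reached by 2.93% of all windows. Since the fullest HMG windows are set against this share, it is a description only. In HMGB3 the copies began at -144, -101 and -55 from the start, and TTTGAA began at -172, while its other window held no match. In HMGB1 they began at -103, -59 and -28. Another HMGB1 window held 1 copy at -115. HMGN2 held 1 copy at -22, and HMGA1 held 1 copy at -146 in 1 of its windows. HMGN1 and HMGN3 held 2 copies each, and HMGN4 held none. HMGN1, like HMGN4, was near its growing level by the brightest probe set. Its log2 ratios were -0.14 in OIS and -0.16 in RS, and those of HMGN4 were -0.25 and -0.22. Whether copies of CCAAT go with the changes was not tested. A form of the cell cycle homology region was present in 2 of the 11 windows, the printed one of HMGB3 and another of HMGB1, and in 14.3% of all windows. None of the 11 windows held an E2F form, which 2.79% of all windows did. These matches describe letters in the windows and not binding.

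The HMG genes did not move as 1 group in senescence. HMGB2 and, by its brightest probe set, HMGB3 were far lower in both senescent cultures, and HMGN2 was about 2-fold lower. HMGA2 was moderately higher by its brightest probe set. HMGB1 was lower on all of its probe sets by smaller amounts, and HMGN3 was slightly lower. HMGN1 and HMGN4 differed little on their brightest probe sets, as did HMGA1 in RS. In OIS the log2 ratio of HMGA1 was -0.35, close to that of HMGB1 at -0.37, and both of its probe sets were lower. Each gene was read from its brightest probe set (highest mean log2 signal), after signals below a floor of 45.5, the median of all values, were raised to it. At or past 2-fold lower in OIS were 3 of 9 HMG genes, HMGB2, HMGB3 and HMGN2, against 6.63% of the 13466 genes above the floor on at least 1 array. In RS 2 of 9 passed 2-fold lower, HMGB2 and HMGB3, against 5.58% of genes. HMGN2 narrowly missed in RS, and the second HMGB3 probe set missed in both cultures. None of the 9 was 2-fold higher in OIS, against 4.92% of genes, or in RS, against 3.72%. The median log2 ratio of the 9 genes was -0.37 in OIS and -0.40 in RS, where the median over all genes was 0.00 in both, and 8 of 9 lay below 0 in each. Among all genes 49.9% lay below 0 in OIS and 49.3% in RS. The OIS and RS ratios share the growing array, so their likeness is not independent evidence.

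**Figure D1:**
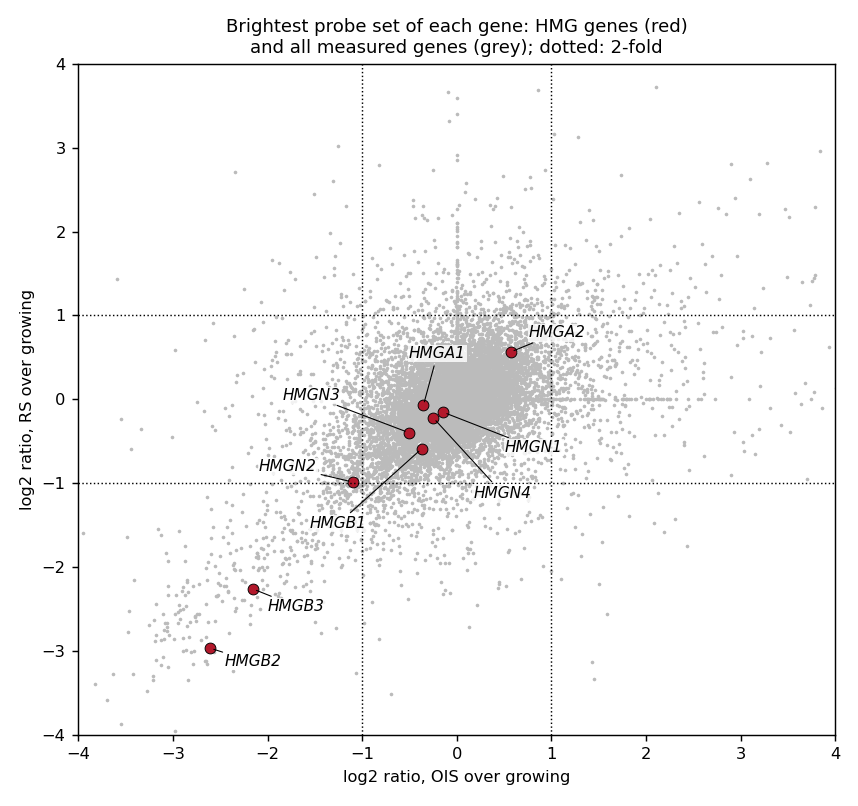
Log2 ratio of OIS over growing cells (x axis) and of RS over growing cells (y axis) for the brightest probe set of each of 13466 measured genes (grey), with the 9 HMG genes in red, dotted lines at 2-fold and 39 genes outside the plotted range. HMGB2 at -2.61 and -2.97 and HMGB3 at -2.15 and -2.26 lie far to the lower left, HMGN2 lies near the crossing of the 2-fold lines, and HMGA2 is the 1 HMG gene right of 0 and above 0 on both axes.

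Of the HMGB proteins, HMGB2, which is most abundant in dividing cells, had the lowest ratios. Its signal was 15068, 2476 and 1925 in the growing, OIS and RS cultures. It was thus 6.08-fold lower in OIS and 7.83-fold lower in RS. Ordered from the lowest ratio, it stood at position 98 of 13466 genes in OIS and at position 31 in RS. The values come from probe set 208808_s_at, since the second probe set of HMGB2, 236091_at, was below the floor on all 3 arrays at 28.7, 15.1 and 11.4.

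HMGB3, a family member known from stem and progenitor cells, was also far lower, but only on its brighter probe set. Its brighter probe set, 203744_at, read 4114, 925 and 857 in growing, OIS and RS cells, 4.45-fold and 4.80-fold lower. The second probe set, 225601_at, read 738, 379 and 375, which is 1.94-fold and 1.97-fold lower and short of 2-fold. Both put the senescent cultures below the growing one and close to each other, but the second gave log2 differences of -0.96 and -0.98 where the first gave -2.15 and -2.26. The gene stood at position 171 of 13466 in OIS and 116 in RS by the brighter probe set.

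HMGB1, the most widely expressed HMGB protein, was lower in both senescent cultures on all 5 of its probe sets. Probe set 200680_x_at read 18370, 14196 and 12201 in growing, OIS and RS cells, and 214938_x_at read 14052, 10912 and 10343. Probe set 224731_at read 13168, 8310 and 7886. Probe set 200679_x_at read 9680, 5202 and 3821, and 224734_at read 1860, 1118 and 889. All 5 had their order of signals in common, highest in growing cells and lowest in RS. The log2 ratios ran from -0.90 to -0.36 in OIS and from -1.34 to -0.44 in RS, and 2 of the 5 passed 2-fold in RS, 200679_x_at at 2.53-fold and 224734_at at 2.09-fold lower. Names ending in _x_at or _s_at mark probe sets that can bind further transcripts, and RefSeq lists 50 loci named as HMGB1 pseudogenes. The 2 probe sets without such an ending gave -0.66 and -0.73 in OIS and -0.74 and -1.06 in RS, larger differences than the brightest probe set gave.

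**Figure D2:**
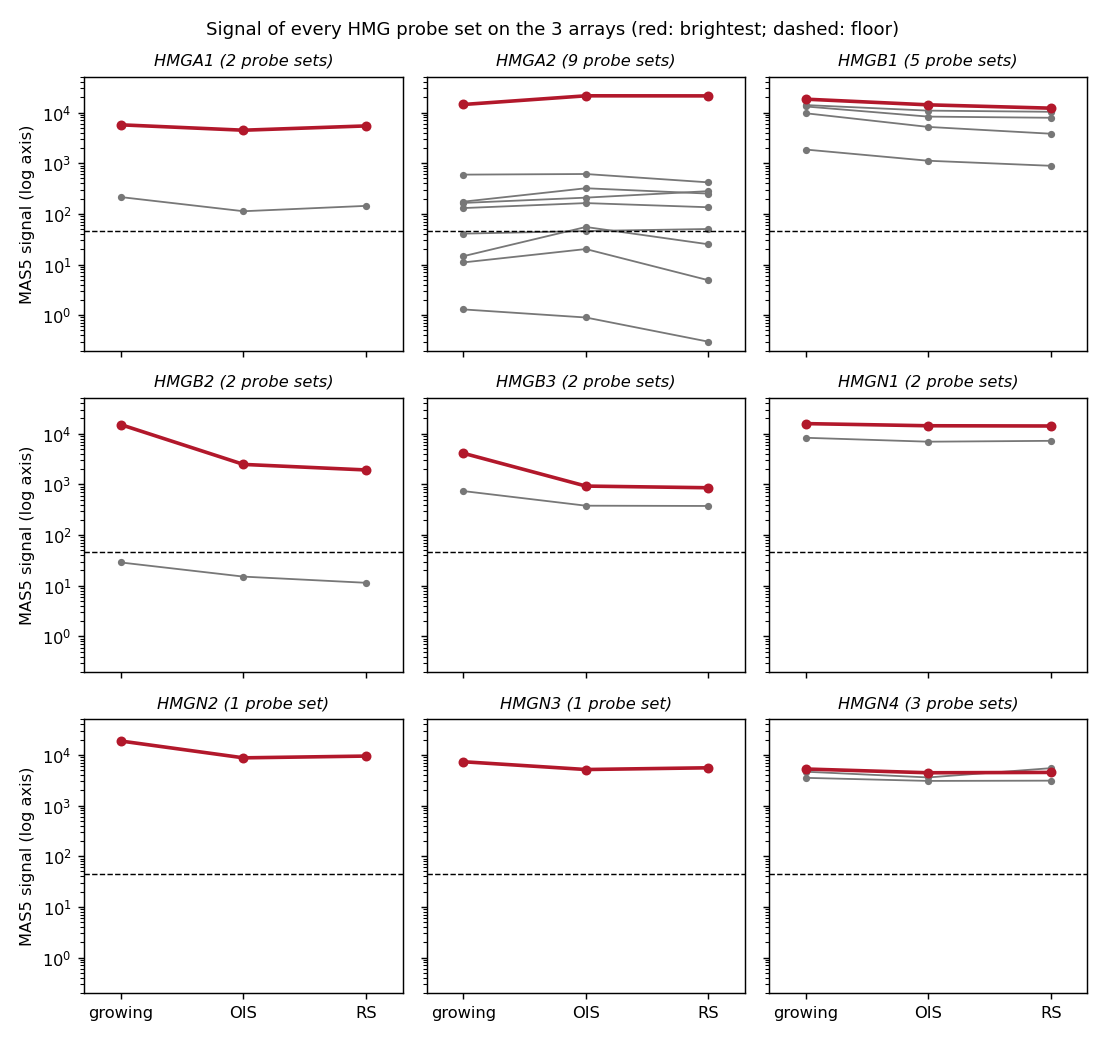
MAS5 signal (log axis) of all 27 HMG probe sets on the growing, OIS and RS arrays, 1 panel per gene and 1 line per probe set, with the brightest probe set in red and the floor of 45.5 dashed. HMGB2 drops from 15068 to 2476 and 1925, all 5 HMGB1 lines slope down, and the HMGA2 panel holds 1 line from 14420 upward and 8 lines at or below 612.

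On their brightest probe sets the HMGA genes lay on opposite sides of growing cells, HMGA1 in RS at a log2 ratio of only -0.07. HMGA2, an oncofetal AT-hook protein, read 14420, 21397 and 21322 in growing, OIS and RS cells on probe set 208025_s_at, 1.48-fold higher in both. The other 8 HMGA2 probe sets were far dimmer, and 2 of them, 1567223_at and 1568286_at, were below the floor on all 3 arrays. Above it on all 3 were 4 others. Probe set 1558683_a_at read 174, 320 and 251, 1567224_at read 164, 209 and 281, and 1558682_at read 130, 163 and 135 in growing cells, OIS and RS. These 3 were lowest in growing cells, whereas 1561633_at read 595, 612 and 419 and was 1.42-fold lower in RS than in growing cells. The remaining pair, 1568287_at at 14.6, 55.1 and 25.1 and 1559891_at at 40.7, 45.8 and 50.3, straddled the floor. Of the 5 HMGA2 probe sets above the floor on all 3 arrays, 5 were above 0 in OIS, and in RS 4 were above and 1 below. None reached 2-fold, the highest ratios being 0.88 for 1558683_a_at in OIS and 0.77 for 1567224_at in RS.

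HMGA1, the other AT-hook protein, was slightly lower. Probe set 206074_s_at read 5721, 4479 and 5444 in growing, OIS and RS cells, 1.28-fold lower in OIS and 1.05-fold lower in RS. The dimmer 210457_x_at read 214, 113 and 144, 1.90-fold and 1.49-fold lower. Both probe sets were highest in growing cells and lowest in OIS. HMGA1 and HMGA2 thus had brightest probe sets on opposite sides of 0 in each senescent culture. The same holds for HMGA2 against every other HMG gene.

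Of the HMGN proteins, HMGN2, a ubiquitous nucleosome binder, was the lowest. It has 1 probe set, 208668_x_at, which read 18745, 8733 and 9463 in growing, OIS and RS cells. It was 2.15-fold lower in OIS, just past 2-fold, and 1.98-fold lower in RS, just short of it. After quantile normalization its log2 ratio in RS was -1.07 in place of -0.99, which passes 2-fold. RefSeq names 48 HMGN2 pseudogenes, and no other probe set was at hand to set beside this one.

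HMGN1, HMGN3 and HMGN4 were within 1.5-fold of growing cells on their brightest probe sets. HMGN1 read 15820, 14350 and 14198 on 200944_s_at and 8309, 6956 and 7232 on 200943_at, so that both probe sets were highest in growing cells by 1.10-fold to 1.19-fold. HMGN3, known for roles in glial and endocrine cells, read 7315, 5138 and 5556 on its only probe set, 1.42-fold lower in OIS and 1.32-fold lower in RS. HMGN4, an intronless copy related to HMGN2, read 5259, 4432 and 4502 on 202579_x_at and 3518, 3060 and 3095 on 209786_at, at most 1.19-fold lower. The remaining probe set, 209787_s_at, read 4649, 3584 and 5460, lowest in OIS and highest in RS. All 7 HMGN probe sets lay below 0 in OIS and 6 of 7 in RS.

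Probe sets of 1 gene were the only repeat measurement. Over 6759 genes with at least 2 probe sets above the floor, the SD of the log2 ratio between the best 2 of a gene was 0.36 in OIS and 0.33 in RS, each against growing cells, and 0.37 between OIS and RS. This covers probe error and not differences between cultures. HMGA1, HMGN1 and HMGN4 lay within that spread of 0 in both senescent cultures, as did 54.9% of all genes in OIS and 55.2% in RS. HMGA2, HMGB1, HMGB2, HMGB3, HMGN2 and HMGN3 lay outside it. HMGB1 in OIS, at -0.37, and HMGN3 in RS, at -0.40, did so narrowly. HMGA1 in OIS, at -0.35, was narrowly inside, so it and HMGB1 are not set apart there.

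Counted by probe set, 22 of the 27 exceeded the floor on all 3 arrays. In OIS 17 of these were below 0 and 5 above, and the 5 were all of HMGA2. In RS 17 were below 0 and 5 above, 4 of HMGA2 and 1 of HMGN4. The share below 0 was counted over all genes only, at 49.9% in OIS and 49.3% in RS. HMGA2 and HMGB1 give 5 each of the 22 HMG probe sets, so these are not independent members. On at least 1 array 24 exceeded the floor, and the counts past 2-fold among them are a description. At least 2-fold lower were 3 of 24 in OIS, against 6.05% of all 30738 measured probe sets, and 4 of 24 in RS, against 4.69%. The 3 in OIS were 1 each of HMGB2, HMGB3 and HMGN2. In RS they were 1 each of HMGB2 and HMGB3 and 2 of HMGB1. No HMG probe set was 2-fold higher in either culture, against 4.18% of all probe sets in OIS and 3.35% in RS. The median log2 ratio in OIS was -0.82 over 8 HMGB and -0.26 over 7 HMGN probe sets, all above the floor on every array, and in RS it was -1.02 and -0.20. HMGB1 gives 5 of the 8 and HMGN4 gives 3 of the 7, so these medians weigh genes by their number of probe sets. Over all measured probe sets the median was -0.02 in OIS and 0.00 in RS. The 9 measured HMGA probe sets, 7 of them of HMGA2 and some straddling the floor, had medians of 0.28 in OIS and 0.05 in RS. By brightest probe set the HMGA genes lay on opposite sides of 0. HMGA1 did so within the probe-set spread, at -0.35 in OIS and -0.07 in RS.

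**Figure D3:**
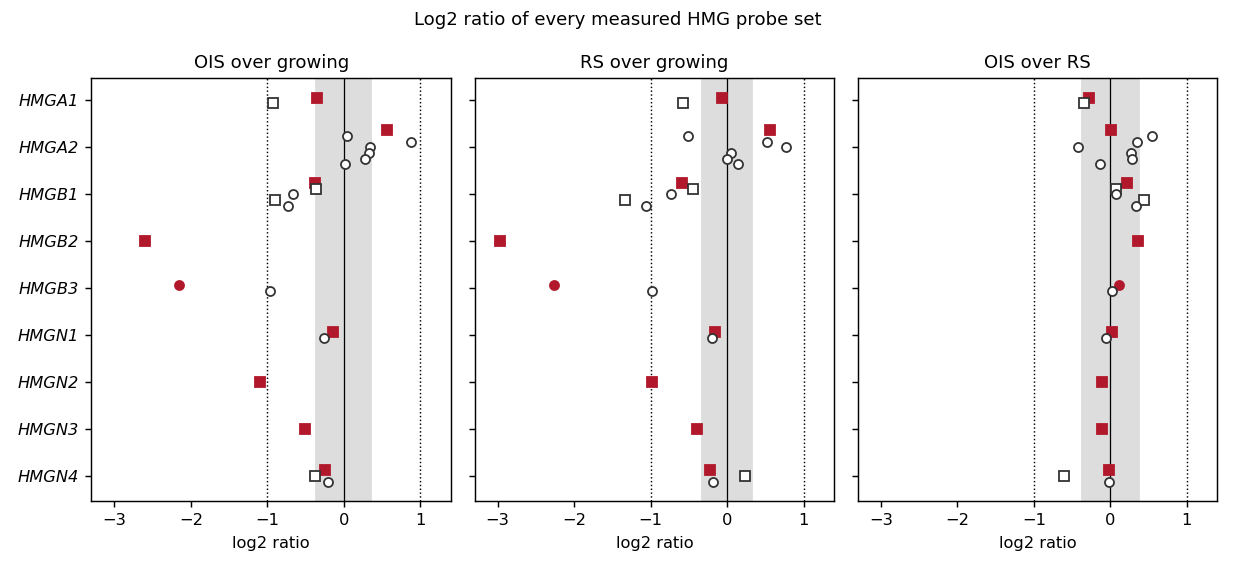
Log2 ratio of each of the 24 HMG probe sets above the floor on at least 1 array, by gene, with panels from left to right for OIS against growing cells, RS against growing cells and OIS against RS. The brightest probe set of a gene is filled red, squares have names ending in _s_at or _x_at, grey bands span 1 probe-set SD on either side of 0 (0.36, 0.33 and 0.37) and dotted lines mark 2-fold. All HMGB points lie left of 0 in the first 2 panels, and all 9 red points lie inside the band in the third.

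The direct comparison of the 2 senescent cultures, which does not use the growing array, showed small differences. None of the 9 genes reached 2-fold between OIS and RS, where 5.27% of all genes were at least 2-fold lower in OIS and 5.48% at least 2-fold higher. All 9 brightest probe sets lay within the probe-set spread of 0.37, as did 56.9% of all genes. HMGB2 was nearest to its edge at 0.36, 1.29-fold higher in OIS than in RS. HMGB1 at 0.22 and HMGB3 at 0.11 were also on the side of OIS, and all 8 measured HMGB probe sets were above 0, from 0.02 to 0.45. Of these 8, 5 are of HMGB1, and only 200679_x_at, at 0.45, lay outside the spread. Among all genes 48.1% lay below 0 in this comparison. No HMG probe set reached 2-fold either way here, where 5.14% of all probe sets were 2-fold lower and 4.63% 2-fold higher in OIS. HMGA1 was at -0.28. HMGA2 at 0.01 and HMGN1 at 0.02 changed sign after quantile normalization and are not ordered. HMGN2 at -0.12, HMGN3 at -0.11 and HMGN4 at -0.02 were below 0. Levels of different HMG genes are not ordered here, because signals of different probe sets are not on a common scale.

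For the 3 genes past 2-fold, the genes nearest in the plane of both ratios were sought among genes with a mean log2 signal within 1 of theirs. These distances rest on 2 ratios from 3 arrays that share the growing array, and on the brightest probe set of each gene. Distances smaller than the probe-set SD, 0.36 in OIS and 0.33 in RS, do not rank the genes. The place of HMGB3 is that of 203744_at, while its second probe set lies at -0.96 in OIS and -0.98 in RS. Nearest to HMGB2, among 2362 candidates, was CCNB1, which encodes cyclin B1, at a distance of 0.31 with log2 ratios of -2.63 in OIS and -2.66 in RS. ANLN, SMC4, RACGAP1 and RRM2 followed at distances of 0.83 to 0.97, so only CCNB1 was close. Nearest to HMGB3, among 3632, were the condensin subunit SMC4 at 0.12, the chromatin remodeller HELLS at 0.14, cyclin A2 (CCNA2) at 0.23, the replication inhibitor geminin (GMNN) at 0.26 and the collagen COL15A1 at 0.26. Nearest to HMGN2, among 1062, were the histone chaperone ANP32B at 0.09, CSRP2 at 0.10, the dUTP-hydrolysing enzyme DUT at 0.15, the chromatin protein DEK at 0.16 and the tight junction gene CLDN11 at 0.17.

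Chromatin genes that work beside the HMG proteins were described by lists. Of 15 FACT and histone chaperone genes, all measured, 4 were at least 2-fold lower in OIS and 5 in RS, none was 2-fold higher, and the medians were -0.58 and -0.78. Over all genes 6.63% were 2-fold lower in OIS and 5.58% in RS. Lowest were CHAF1B, a subunit of chromatin assembly factor 1, and the H3-H4 chaperone ASF1B. CHAF1B was at -2.05 in OIS and -1.66 in RS, and ASF1B at -1.48 and -1.73. CHAF1B read 218, 52.9 and 69.3 in growing, OIS and RS cells, with both senescent readings near the floor. Highest were nucleophosmin (NPM1) at 0.03 and 0.06, with NAP1L4 at 0.05 in RS. SSRP1, the HMG-box subunit of FACT, was at 0.02 in OIS and at -1.02 in RS, 2.03-fold lower. Of 18 senescence heterochromatin factors, all measured, 4 were at least 2-fold lower in OIS and 5 in RS, against the same 6.63% and 5.58% of all genes, and none was higher, against 4.92% and 3.72%. The medians were -0.47 and -0.59. The lamina genes LMNB1 at -3.21 and -3.34 and TMPO at -1.86 and -2.37 were the lowest. The histone variants MACROH2A2 at 0.26 and MACROH2A1 at 0.15 were highest in OIS, though MACROH2A2 was at -1.24 in RS, and LMNA at 0.18 and CABIN1 at 0.13 in RS.

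Linker histones, with which HMGN proteins compete, had 4 of 7 genes measured. None passed 2-fold in OIS, and in RS H1-2 was 2.15-fold higher and H1-10 2.11-fold lower, against 3.72% of all genes higher and 5.58% lower, with medians of -0.32 and 0.14. H1-2 at 0.03 was highest in OIS, followed by H1-4, which read 48.8 in growing cells and was below the floor in both senescent cultures. H1-3 at -0.58 and H1-10 at -0.55 were lowest in OIS, and H1-3 was at 0.38 in RS.

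Of 28 other HMG-box and HMGN genes 24 were measured. In OIS 2 were at least 2-fold lower and 1 higher, in RS 5 lower and none higher, with medians of 0.03 and -0.08. Over all genes 6.63% were lower and 4.92% higher in OIS, close to these counts, and 5.58% and 3.72% in RS. TOX, a nuclear factor of T cell development, was lowest in OIS at -3.82 and stood at -3.39 in RS. It read 690, 48.8 and 65.9 in growing, OIS and RS cells, so both senescent readings lie near the floor of 45.5. SOX11, a developmental factor, read 1360, 565 and 43.3 in growing, OIS and RS cells, which puts it at least 29.9-fold lower in RS. The Wnt effector LEF1 read 182, 898 and 67.5, highest in OIS and lowest in RS. HMGXB3 and SOX4, each at 0.97, followed LEF1 in OIS, and SOX13 at 0.74 and SOX9 at 0.70 were highest in RS. HMGN5, a further HMGN family member, read 341, 244 and 326.

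Receptors and partners of extracellular HMGB1 had 8 of 11 genes measured. In OIS 2 were at least 2-fold higher and 2 lower, and in RS 1 each way, with medians of 0.00 and 0.01. Over all genes 4.92% were higher and 6.63% lower in OIS, and 3.72% and 5.58% in RS. Thrombomodulin (THBD), which binds HMGB1, read 6.9, 372 and 75.6 in growing, OIS and RS cells, at least 8.17-fold higher in OIS. TREM1 was at least 2.03-fold higher in OIS, and the proteoglycan SDC1 was 2.52-fold lower in OIS and 2.41-fold lower in RS. CXCL12, a chemokine that forms a complex with HMGB1, read 547, 16.2 and 1479, lowest in OIS and highest in RS. CD24 read 23.3, 26.5 and 86.3. AGER, the receptor RAGE, read 21.6, 56.8 and 5.5. TLR2, TLR4 and CXCR4 had no probe set assigned to them alone that exceeded the floor on any array.

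Genes around HMGA2 and the let-7 microRNAs had 10 of 12 measured. In OIS 3 were at least 2-fold higher and 1 lower, and in RS 1 each way, with medians of 0.20 and -0.17, where the shares over all genes were 4.92% higher and 6.63% lower in OIS and 3.72% and 5.58% in RS. IGF2BP2, an RNA-binding protein known as a target of HMGA2, read 3729, 3874 and 2953 in growing cells, OIS and RS. ARID3B was at least 3.46-fold higher in OIS and CDKN2A 2.40-fold, while CCNA2 at -2.35 and IGF2BP3 at -0.77 were lowest. In RS CDKN2A at 1.37 and JUNB at 0.90 were highest, and CCNA2 at -2.37 and IGF2BP1 at -0.54 lowest. LIN28A and LIN28B, which block let-7 maturation, had no probe set assigned to them alone that exceeded the floor on any array.

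**Figure D4:**
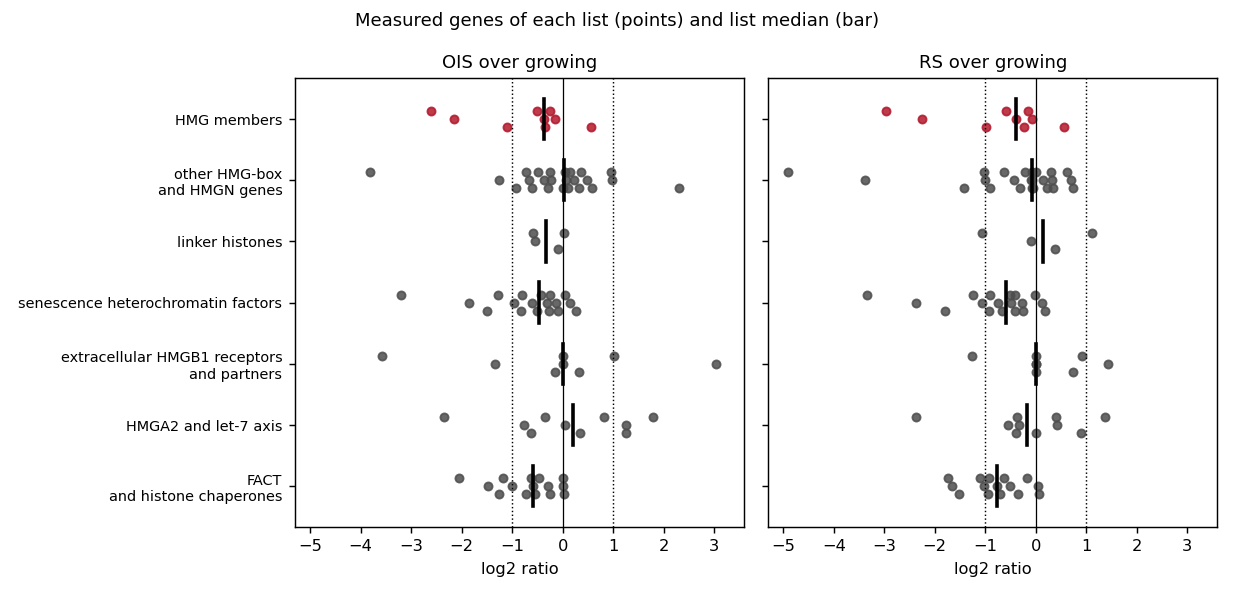
Log2 ratio of OIS over growing (left) and RS over growing (right) for the brightest probe set of each measured gene in 6 lists, with the 9 HMG genes on top in red, bars at the list medians and dotted lines at 2-fold. The HMG medians of -0.37 and -0.40 lie between those of the other HMG-box genes (0.03 and -0.08) and those of the histone chaperones (-0.58 and -0.78).

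The proliferation marker MKI67 read 815, 143 and 194 in growing cells, OIS and RS, and the inflammatory cytokine IL6 752.6, 14925 and 1193. CDKN1A, which encodes p21, was 2.60-fold higher in OIS and 1.36-fold in RS, CDKN2B 9.93-fold and 1.66-fold, and CXCL8 17.3-fold and 2.35-fold. HRAS read 7696, 11748 and 2553, and whether its probe set reads the fusion gene is not stated in the labels. All 12 fibroblast markers were above the floor on every array, with summed signals from 167067 to 181749. Epithelial markers reached 3 or 4 of 8 with sums from 390 to 496, endothelial 3 of 5 with sums from 1368 to 2175, and blood cell markers 1 or 2 of 4 with sums from 277 to 352. Smooth muscle and pericyte markers reached 3 or 4 of 4, and their sum was 1040, 2715 and 1521 in growing, OIS and RS cells, with RGS5 at 309, 2412 and 1006. MKI67 moved with HMGB2, HMGB3 and HMGN2, and the part of cell division or of other cell types in the HMG results was not tested.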

How the data were processed

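RNA of 3 cultures was measured on 1 Affymetrix array each. Each deposited value is an intensity on a linear scale for 1 probe set, computed by the authors with MAS5 according to the submitters' processing notes (version and settings not stated). MAS5 scales each array to a common mean, so ratios are read against the average probe set and a shift of all genes would not be seen. Detection calls were not used here.

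Of 54613 probe sets, 41091 name 1 gene, 1801 several and 11721 none, per the platform annotation, with symbols updated by gene identifier through RefSeq. Groups come from the labels. Signals were raised to the pooled median of 45.5 before log2, and genes were represented by the probe set with the highest mean log2 signal. Log2 ratios were formed for the 3 pairs of arrays, and 2-fold or more was counted. There is no test between conditions. The depth of an array has no count, and the number of arrays limits precision.

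All 9 genes are named with every probe set, the 5 most similar genes for those past 2-fold, and from each list the 2 highest and 2 lowest members and single others chosen after their values were seen. The members, lists and motifs were chosen with earlier results of these data known. Alternatives were quantile normalization, centred ratios, floors at the 25th and 60th percentiles (11.7 and 88.8), a pseudocount of 16 with no floor, no filter on low signals, the median probe set of a gene, leaving out _s_at and _x_at probe sets, and 3-fold. Simulated arrays were used to check the code. Python 3.11.15, numpy 2.4.6, pandas 2.3.3 and matplotlib 3.10.9 were used.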

Additional observations from a re-analysis of the deposited data

Results flagged for a closer look

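A pair of HMG probe sets lay on opposite sides of growing cells in the senescent cultures, a difference that was not tested, since each culture has 1 array. Probe set 1561633_at of HMGA2 had a log2 ratio of 0.04 in OIS and -0.51 in RS, a difference of 0.55, while the brightest HMGA2 probe set was higher by 0.57 and 0.56. Probe set 209787_s_at of HMGN4 had log2 ratios of -0.38 in OIS and 0.23 in RS, a difference of -0.61, while the other probe sets of HMGN4 lay between -0.25 and -0.18 in both cultures. No other HMG probe set above the floor lay on opposite sides of 0 in this way.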

How the results depend on the processing

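HMGB2, HMGB3 and HMGN2 were at least 2-fold lower in OIS under quantile normalization, centring, both other floors, the pseudocount, no filter and the median probe set. At 3-fold only HMGB2 and HMGB3 remained among the HMG genes, in OIS and in RS. Without _s_at and _x_at probe sets, only HMGA2, HMGB1, HMGB3, HMGN1 and HMGN4 were measured. Of these, 1 was 2-fold lower in OIS and 1 in RS, HMGB3 in both. The share over all genes was not counted at this setting or at 3-fold. Without those probe sets HMGB2 had none above the floor, and HMGA1, HMGN2 and HMGN3 had none at all. HMGA2 then had log2 ratios of 0.04 in OIS and -0.51 in RS, so the sign in RS turns with the probe set used. With the median probe set HMGA2 was at 0.14 in RS, and HMGB3 at -1.56 in OIS and -1.62 in RS. No HMG gene was 2-fold higher under any setting, and none passed 2-fold between OIS and RS. Single-gene log2 ratios moved by less than the probe-set spread and kept their side of 2-fold in 66 of 68 cases in OIS. In RS 64 of 68 did so, and between OIS and RS 67 of 68. Much of this was fixed beforehand. The brightest probe sets lie far above every floor, so the other floors and no filter left all 9 genes unchanged. The median probe set cannot move a gene with 1 measured probe set, as for HMGB2, HMGN2 and HMGN3. These counts therefore say little about robustness. HMGB2 ranged from -2.70 to -2.59 in OIS and from -3.02 to -2.96 in RS over the settings that measured it. No paired analysis was possible because each group had 1 array and the labels give no shared replicate numbers. Signals near the floor carry little information, which touches 4 of the 9 HMGA2 probe sets and the second HMGB2 probe set.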
